A study of Mus musculus with 6 samples.

Results

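The receptors for IL-2, IL-4, IL-7, IL-15 and IL-21 share the common gamma chain, and the genes of their chains were examined here in the earliest iNKT cells of the mouse thymus. The 7 genes were taken by symbol from the 48397 rows of the count table: Il2ra, Il2rb, Il2rg, Il7r, Il4ra, Il15ra and Il21r. All 7 were in the table and 6 passed the filter on low counts, with Il15ra as the exception. Stage 0 iNKT cells (PBS57-CD1d tetramer+, CD24+, CD69+, CD44-, CD4 low or negative, CD8-) had been sorted from 3 BALB/c and 3 SKG samples, each a pool of thymi from 3 mice aged 8 to 10 weeks that gave about 1000 cells. BALB/c mice were the wild type, and SKG mice carry a hypomorphic mutation of Zap70, the kinase that relays the TCR signal, on the same BALB/c background. The comparison asks whether weaker TCR signaling changes the transcripts of these receptors just after positive selection. A library is thus a pool of mice, and in such bulk samples fewer cells that express a gene and less RNA per cell cannot be told apart.

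The common gamma chain, encoded by Il2rg, has no ligand of its own and is joined by a chain that recognizes the cytokine. With Il2rb, the beta chain shared by the IL-2 and IL-15 receptors (CD122), it forms a receptor of intermediate affinity, to which the alpha chains Il2ra (CD25) and Il15ra add affinity for IL-2 or IL-15. Il7r (CD127), Il4ra and Il21r each bind their cytokine and pair with the common chain, which couples to the kinase Jak3, whereas the partner chains couple to Jak1. Signals then pass through STAT proteins, mainly Stat5a and Stat5b for IL-2, IL-7 and IL-15, Stat6 for IL-4 and Stat3 for IL-21. In the iNKT lineage, IL-15 is known to sustain the iNKT1 subset and IL-7 the iNKT17 subset, and surface CD122 distinguishes iNKT1 from iNKT2 cells.

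The libraries held between 37176544 and 43115544 reads on genes. Levels are given as CPM, the reads of a gene scaled to the TMM-normalized library total, and, where different genes are compared, as RPKM, which is CPM per kilobase of annotated exon. Among 12312 genes tested, 14.8% had 0 reads in at least 1 library, and 0 reads in a library allow a level of up to 0.0830 CPM (3 reads). The PCR copies in these reads are not separate molecules, so this limit covers counting error only. All 6 marker genes listed for stage 0 (Cd24a, Cd69, Egr2, Zbtb16, Cd3e and Trbc1) had reads in every library, though Cd24a was as low as 7.31 CPM in BALB/c replicate 2. Zap70 was at 374 to 498 CPM in BALB/c and 322 to 409 CPM in SKG, but the SKG mutation changes the protein, so this level does not check the labels. Markers of double-positive thymocytes, B cells and myeloid cells were highest in BALB/c replicate 1 and SKG replicate 3, and their values are given beside Il2ra, which was highest in the same libraries.

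The chromosomal arrangement and the promoters of the genes introduce the members. In GRCm38, Il4ra (chromosome 7, 125552120 to 125579474) and Il21r (125603429 to 125633570) lie 23954 bases apart on the same strand, with 0 counted genes between them. Il2ra (chromosome 2, 11642807 to 11693193) and Il15ra (11705290 to 11734317) form another pair, 12096 bases apart. Il2rg is on chromosome X (101264378 to 101268255), and Il7r (9505788 to 9530176) and Il2rb (78479256 to 78495271) are far from each other on chromosome 15. The 250 bases before the start, from RefSeq (GRCm38.p6), are printed for 3 genes, because Il2rg was the most abundant chain, Il21r was the gene whose libraries separated by genotype and Il2ra had the widest spread of the 6 tested genes. Capitals mark matches, on either strand, to TTCNNNGAA (the STAT motif), GCGNGGGCG (Egr), GGAAAA (NFAT), TGTGGT (Runx) or CCGGAA (Ets), and no matches overlapped in these windows.

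Il2rg, chrX:101268256-101268505, minus strand: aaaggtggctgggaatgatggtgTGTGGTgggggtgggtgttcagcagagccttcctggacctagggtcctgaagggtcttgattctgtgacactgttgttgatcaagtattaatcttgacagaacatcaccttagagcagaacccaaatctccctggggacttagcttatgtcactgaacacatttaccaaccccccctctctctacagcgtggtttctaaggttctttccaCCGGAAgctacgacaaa

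Il21r, chr7:125603179-125603428, plus strand: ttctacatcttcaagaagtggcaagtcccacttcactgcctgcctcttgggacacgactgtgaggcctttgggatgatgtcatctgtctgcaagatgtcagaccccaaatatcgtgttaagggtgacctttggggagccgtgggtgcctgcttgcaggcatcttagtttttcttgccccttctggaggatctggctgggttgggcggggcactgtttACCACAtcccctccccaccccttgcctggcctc

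Il2ra, chr2:11642542-11642791, plus strand: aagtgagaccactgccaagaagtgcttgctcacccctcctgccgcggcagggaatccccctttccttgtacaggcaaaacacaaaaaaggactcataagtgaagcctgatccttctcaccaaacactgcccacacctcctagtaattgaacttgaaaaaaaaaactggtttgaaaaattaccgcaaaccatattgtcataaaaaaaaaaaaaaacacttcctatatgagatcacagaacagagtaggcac

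The Il2rg window held the Ets letters 17 bases before the start and the Runx letters 227 bases before it. The Il21r window held the Runx letters on the opposite strand 33 bases before the start. The Il2ra window held none of the 5 motifs. Of the windows not printed, that of Il7r held the STAT letters 142 and the NFAT letters 121 bases before the RefSeq start, which lies inside the GENCODE bounds of the gene, and that of Il15ra held NFAT and Ets letters. Over 27025 promoters of the same length, 7.18% held the STAT letters, 4.65% the Egr letters, 20.6% the NFAT letters, 14.2% the Runx letters and 12.2% the Ets letters. Among these windows, that of Il4ra held the most CG dinucleotides, with 17. There were 4 for Il21r, 3 for Il2rg, 3 for Il2ra, 2 for Il15ra and 1 for Il7r. The median promoter had 6, and 76.4% of promoters had fewer than Il4ra. The RefSeq start of Il4ra also lies inside the GENCODE bounds of the gene. None of the windows of these 6 genes held the Egr letters, and Il2rb had no entry in the table. A match to such letters is a description and not evidence of binding.

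Stage 0 iNKT cells of both genotypes held abundant transcripts for the common chain, the beta chain and the IL-4 and IL-21 receptors, and few for the IL-7 receptor and the alpha chains. Il2rg was the highest per kilobase, with a mean of 217 ± 27.6 RPKM (SD, n = 6 libraries), followed by Il21r at 106 ± 15.2. Il2rb stood at 54.0 ± 12.7 and Il4ra at 45.7 ± 16.1 RPKM. The lowest of these 4 genes in any library was Il4ra at 30.6 RPKM in SKG replicate 3. The remaining 3 genes never exceeded 6.07 RPKM, the value of Il2ra in SKG replicate 3. Il7r averaged 2.42 ± 2.40 RPKM, Il2ra 1.48 ± 2.36 and Il15ra 0.124 ± 0.245.

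**Figure D1:**
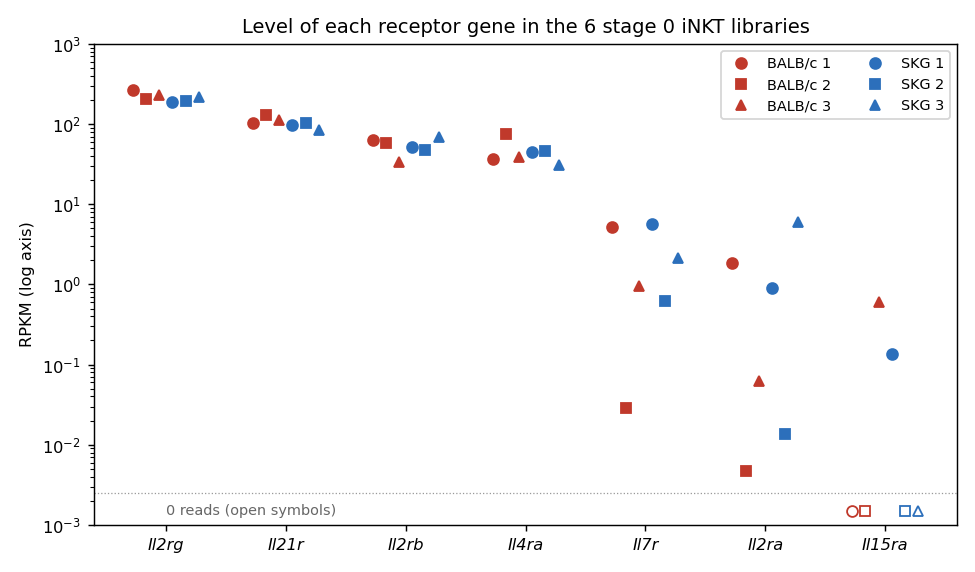
RPKM of each gene (log axis) in the 3 BALB/c libraries (red) and the 3 SKG libraries (blue), with a symbol for each replicate number and open symbols for 0 reads. The 4 genes on the left sit between 30.6 and 265 RPKM in every library, whereas Il7r ranges from 0.0289 to 5.63 RPKM and Il2ra from 0.00472 to 6.07 RPKM.

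Neighbours in this order were compared within libraries with a two-sided exact sign-flip permutation test on log2(RPKM + 0.01), for which 6 libraries allow no p below 0.031. Il2rg exceeded Il21r in 6 of 6 libraries, by 1.04 ± 0.27 on the log2 scale (SD, n = 6, exact p = 0.031, adjusted p = 0.0625 over 6 pairs). Il21r exceeded Il2rb in 6 of 6 libraries as well, by 1.00 ± 0.48 (SD, n = 6, exact p = 0.031, adjusted p = 0.0625). Il2rb and Il4ra could not be ordered, since Il2rb was higher in 4 of 6 libraries and the difference of 0.27 ± 0.60 was smaller than its spread (SD, n = 6, exact p = 0.34375, adjusted p = 0.34375). The widest step was from Il4ra to Il7r, of 5.36 ± 3.04 (SD, n = 6, exact p = 0.031, adjusted p = 0.0625). Il7r lay above Il2ra in 5 of 6 libraries (exact p = 0.125, adjusted p = 0.1875), and Il2ra above Il15ra in 5 of 6 (exact p = 0.1875, adjusted p = 0.225). The same order of mean levels was found with the longest transcript as the length, with a pseudocount of 1 and without each library in turn.

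Il2rg alone accounted for 50.9% ± 4.60 (SD, n = 6) of the summed RPKM of the 7 genes, and Il21r for 24.8% ± 2.83. Il2rb made up 12.7% ± 2.82 and Il4ra 10.7% ± 3.31, so that the other 3 genes together added little. The transcript of the common chain was in excess over each partner. Its RPKM was 3.11 to 6.78 times that of Il2rb, 2.67 to 7.25 times that of Il4ra and 1.56 to 2.54 times that of Il21r over the 6 libraries. For Il2rg over Il2rb, the BALB/c libraries averaged 4.80 ± 1.75 (SD, n = 3) compared with 3.67 ± 0.523 (SD, n = 3) for SKG, and the genotypes overlapped (exact permutation test, two-sided, p = 0.4). The smallest p that 3 libraries against 3 allow is 0.1. The sum over all 7 genes was 476, 469 and 419 RPKM in BALB/c and 393, 393 and 410 RPKM in SKG (replicates 1 to 3), so that the lowest BALB/c library lay above the highest SKG library. This sum was not tested and consisted mostly of Il2rg and Il21r. Among single tested genes, 13.9% had libraries that did not overlap between the genotypes.

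Between the genotypes, 0 of the 6 tested receptor genes were called differentially expressed (edgeR's quasi-likelihood test, with a Benjamini-Hochberg FDR under 0.1 and a change of at least 1.5-fold), where 0.00% of all tested genes were. At an unadjusted p under 0.05 there were also 0 of the 6, against 5.45% of all tested genes. DESeq2 called 0 of these 6 with or without shrunken fold changes, while it called 1.67% and 2.58% of all genes, respectively. It gave no adjusted p for Il15ra. Log2 fold changes, SKG over BALB/c, were above 0 for 3 genes and below 0 for 3, with a median of -0.06 beside -0.02 over all tested genes. SKG and BALB/c libraries were separate for 1 of the 6 genes, Il21r, where the share among all tested genes was 13.9% (6.77% with SKG above BALB/c and 7.12% with BALB/c above SKG).

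Il21r, the specific chain of the IL-21 receptor, was at 347, 435 and 377 CPM in BALB/c replicates 1 to 3 and at 326, 342 and 285 CPM in SKG replicates 1 to 3. Every BALB/c library lay above every SKG library, but the closest pair, BALB/c replicate 1 and SKG replicate 2, were nearly level. The log2 fold change was -0.28 (SE 0.15, edgeR FDR = 0.959), and its 95% interval reached from -0.64 to 0.08. This interval runs from a fall in SKG to 0.640 of the BALB/c level to a rise to 1.05 of it. With normalization factors estimated anew without SKG replicate 3, the highest SKG library (347 CPM) passed the lowest BALB/c library (346 CPM), so in that fit the new scaling removed the separation. The separation was kept with RLE normalization, with library size alone and in the fits that left out any other library. The summed stage 0 markers separated in the same direction, at 3521 to 4533 CPM in BALB/c against 2954 to 3313 CPM in SKG. Of these 6 genes, Egr2 and Cd69 had libraries that did not overlap, both higher in BALB/c, whereas Cd24a had a log2 fold change of 1.49 and Cd3e of 0.09. Summed markers of mature iNKT1 or NK cells also separated, at 13.9 to 27.4 CPM in BALB/c against 1.37 to 6.53 CPM (exact permutation p = 0.1 for either list, two-sided, adjusted p = 0.4 over 8 marker lists). Among the 8 iNKT1 or NK genes, Tbx21 had 0 reads in all 6 libraries, Klrk1 and Cxcr3 had 0 reads in BALB/c, and Nkg7 was the gene whose libraries did not overlap. The part of these markers' cells in the Il21r level was not tested.

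Il2rg, the common chain, was at 632, 486 and 552 CPM in BALB/c and at 457, 466 and 515 CPM in SKG (replicates 1 to 3). BALB/c replicate 1 was the highest library, but SKG replicate 3 lay above BALB/c replicate 2, so the genotypes overlapped. The log2 fold change was -0.22 (SE 0.15, edgeR FDR = 0.988, 95% interval from -0.56 to 0.13). The genotypes no longer overlapped when BALB/c replicate 2 was left out, with a log2 fold change of -0.31, or when SKG replicate 3 was left out. In these fits 22.4% and 25.8% of all tested genes did not overlap, and Il2rg was called in neither. A small annotated transcript, Gm20489, overlaps 728 exon bases of Il2rg on the same strand and had at most 8 reads in a library. These bases are part of the exon length used for Il2rg, and how reads in them were assigned is not stated. The RPKM of Il2rg may therefore be too low, which was not tested.

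Il2rb was at 273, 252 and 146 CPM in BALB/c and at 219.9, 202 and 297 CPM in SKG. The lowest library was BALB/c replicate 3 and the highest SKG replicate 3, so that the genotypes overlapped throughout (log2 fold change 0.10 ± 0.28 (SE), FDR = 0.991, edgeR). The 95% interval, from 0.672-fold to 1.71-fold, leaves room for changes in either direction, and the sign itself turned in 2 of the 6 fits that left out 1 library.

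Il4ra was at 219, 458 and 232 CPM in BALB/c and at 271, 281 and 183 CPM in SKG. BALB/c replicate 2 stood far above the other 5 libraries, and it decided the direction. With it the log2 fold change was -0.30 (SE 0.34, edgeR FDR = 0.991), and without it 0.11. The 95% interval reached from 0.464-fold to 1.41-fold. A transcript on the opposite strand, Gm44876, overlaps 571 exon bases of Il4ra. It had 15 reads in BALB/c replicate 3 and 0 elsewhere, and counting without strand cannot separate such reads.

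**Figure D2:**
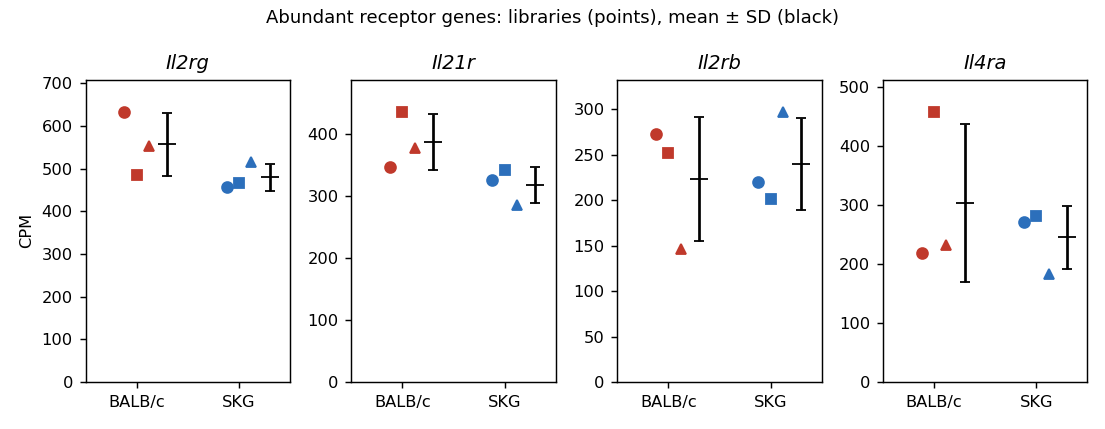
CPM (linear axis from 0) of the 4 abundant receptor genes in BALB/c (red) and SKG (blue) libraries, with circles, squares and triangles for replicates 1, 2 and 3 and black bars for the mean ± SD (n = 3). The 3 BALB/c points lie above the 3 SKG points for Il21r, from 347 CPM upwards against at most 342 CPM, and the points of the genotypes overlap for the other genes.

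The IL-7 receptor transcript varied far more among libraries of one genotype than between the genotypes. Il7r was counted with 988, 5 and 199 reads in BALB/c replicates 1 to 3 against 1057, 112 and 364 reads in SKG replicates 1 to 3, which is 24.0, 0.135 and 4.41 CPM against 26.2, 2.88 and 10.1 CPM. Replicate 1 was thus the highest library in both genotypes and replicate 2 the lowest, although these numbers do not pair the samples. The log2 fold change was 0.46 with a SE of 1.60 (FDR = 0.992, edgeR), and the interval reached from 0.0964-fold to 19.6-fold. When 1 library was left out, the log2 fold change ran from -0.56 (without SKG replicate 1) to 2.52 (without BALB/c replicate 1). A change in Il7r of several fold in either direction was therefore not detectable with these libraries.

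Il2ra, the alpha chain of the IL-2 receptor that activated T cells and regulatory T cells carry, was counted with 434, 1 and 16 reads in BALB/c replicates 1 to 3, compared with 209, 3 and 1254 in SKG. In CPM these were 10.5, 0.0270 and 0.354 in BALB/c and 5.19, 0.0772 and 34.7 in SKG, so each genotype held a library with at least 434 reads and a library with at most 3. The log2 fold change of 1.87 had a SE of 2.33 (FDR = 0.991, edgeR). Leaving out SKG replicate 3 turned it to -0.46, whereas leaving out BALB/c replicate 1 raised it to 6.09. The most reads came from SKG replicate 3 and BALB/c replicate 1, the libraries with the highest sums for the lists of double-positive thymocytes (221 and 437 CPM against 66.5 to 153 CPM elsewhere), B cells (45.0 and 94.9 CPM against 4.59 to 24.1 CPM) and myeloid or dendritic cells (143 and 64.8 CPM against 8.13 to 10.0 CPM). In SKG replicate 1, with 209 reads of Il2ra, the same sums were 71.1, 4.59 and 10.0 CPM. Its B cell sum was the lowest of any library. BALB/c replicate 1 had higher double-positive and B cell sums than SKG replicate 3, but fewer reads of Il2ra (434 against 1254). Its myeloid or dendritic sum was lower, as was its Il2ra. Rag2, of the double-positive list, had 398 reads in SKG replicate 3 and 1044 in BALB/c replicate 1 against at most 3 elsewhere. Cd8a (2396 and 4985 reads) and Cd8b1 (1496 and 4958) were also highest in these 2 libraries. In contrast, SKG replicate 3 was below SKG replicate 2 for Rag1 (34 against 379 reads), Ptcra (0 against 152) and Dntt (1135 against 1615). Arpp21 was highest in SKG replicate 3, but BALB/c replicate 1 lay below BALB/c replicate 2. Lyz2, of the myeloid list, had 3873 reads in SKG replicate 3 and 2215 in BALB/c replicate 1 against at most 188 elsewhere. Of the B cell and dendritic genes, Cd79a had 274 reads in BALB/c replicate 1, 98 in SKG replicate 2 and 0 in SKG replicate 3. Cd79b had 303 and Siglech 270 reads in SKG replicate 3, and each had 0 in BALB/c replicate 1. Pax5, Csf1r, Itgam and Itgax had 0 reads in both SKG replicate 3 and BALB/c replicate 1. The regulatory T cell list (5 genes) was at 302 and 273 CPM in these libraries, within the range of the others (197 to 337 CPM). Most of this sum was Ikzf2, at 245 CPM in SKG replicate 3 and 252 CPM in BALB/c replicate 1, so it says little about the other genes of the list. Foxp3 had 20 reads in SKG replicate 1 and 0 in the other 5 libraries, and Ctla4 had 492 reads in SKG replicate 3 and at most 29 elsewhere. The part of these cells in the Il2ra level was not tested. When both libraries were left out, the log2 fold change was 3.76 with a SE of 2.52.

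Il15ra, the chain that binds IL-15 with high affinity, was found with 0, 0 and 123 reads in BALB/c against 24, 0 and 0 reads in SKG. It was therefore at most 2.72 CPM, and at 0 in 4 of 6 libraries. Its reads came from BALB/c replicate 3 and SKG replicate 1, the libraries in which the fewest tested genes had 0 reads (0.333% and 1.39%, against 2.95% to 7.63% in the others). Il15ra was left out of the test by the filter on low counts.

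**Figure D3:**
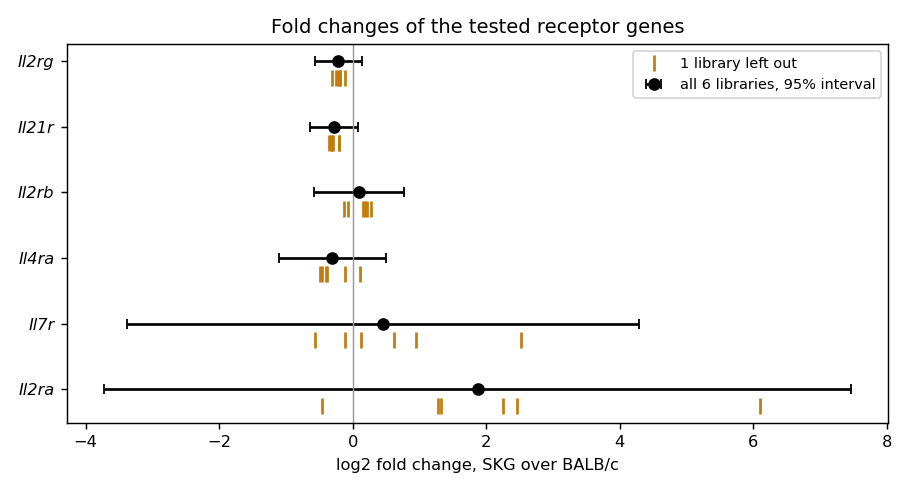
Log2 fold changes (SKG over BALB/c) of the 6 tested receptor genes, with 95% intervals from edgeR's fit in black and the values of the 6 fits without 1 library as orange ticks. The intervals of Il2rg and Il21r stay within -0.64 and 0.13, whereas that of Il2ra reaches from -3.72 to 7.46 and its ticks lie on either side of 0.

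The abundant genes were steadier than Il7r and Il2ra. Expressed as the biological coefficient of variation of the fit, it was 16.9% for Il2rg, 17.5% for Il21r, 26.8% for Il2rb, 30.7% for Il4ra, 129% for Il7r and 170.2% for Il2ra, where the median tested gene had 60.9%. Against tested genes within a factor of 2 in mean level, the fitted dispersion of Il21r was low, with 9.92% of 1180 such genes lower, as was that of Il2rg, with 14.7% of 680 lower. The dispersion of Il4ra was high, with 87.3% of 1645 such genes lower, and for Il2rb 66.6% of 1998 were lower. For Il7r 72.5% of 2387 such genes had a lower dispersion, and for Il2ra 88.3% of 2217.

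The pattern over the 6 libraries was compared with that of every tested gene as the root mean square difference of log2 CPM after the mean of each gene was subtracted, as a description without a test. For Il2rg the closest genes were Pfn1 (0.032), Lat (0.042) and Sub1 (0.046), but 4820 genes lay within 0.5 of it. For Il21r these were Zc3hc1 (0.052), Ppp2r1a (0.069) and 2610524H06Rik (0.070), for Il2rb Frmd8 (0.095), Baz2a (0.115) and Rbm48 (0.121), and for Il4ra Rfx1 (0.118), Tia1 (0.118) and Rfc2 (0.122). Il7r was closest to Gm16279 (0.450), Dcun1d4 (0.581) and Mxd3 (0.588), with 1 gene within 0.5. Il2ra was closest to Kif2c (0.871), Fcgrt (1.01) and Hist1h1b (1.15), with 0 genes within 0.5. Between members, the most alike were Il2rg and Il21r (0.244) and Il4ra and Il21r (0.280), while Il7r and Il2ra differed by 2.00. The short distances were common, since 4629 tested genes lay within 0.5 of Il21r, 3653 of Il2rb and 2488 of Il4ra.

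Transcripts of the cytokines themselves were scarce in these cells. Il4, the product of activated iNKT cells, was found with 174, 254 and 325 reads in BALB/c against 67, 136 and 374 reads in SKG, and the genotypes overlapped (log2 fold change -0.24 ± 0.99 (SE), FDR = 0.997, edgeR). For Il21 the reads were 0, 2 and 45 in BALB/c, compared with 114, 319 and 0 in SKG (FDR = 0.991, edgeR). Il2 had at most 10 reads in any library, Il7 had 9 reads in BALB/c replicate 3 and 0 elsewhere, and Il9 and Il15 had 0 reads in all 6 libraries. Of the remaining chains of these receptors, Il9r had 1 read in all and Il13ra1, which joins Il4ra in the IL-13 receptor, at most 40. Crlf2, which joins Il7r in the receptor for TSLP, was steady at 56.7 to 72.0 CPM in BALB/c and 52.5 to 65.6 CPM in SKG (log2 fold change -0.13 ± 0.25 (SE), FDR = 0.991, edgeR).

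The kinases and STAT proteins that these receptors use were expressed throughout, and edgeR called none of them between the genotypes, while DESeq2 without shrinkage called Jak1 and Stat5a. The list of 9 signal transducers also held the adaptor genes Irs2, Shc1 and Gab2. All 9 were tested and edgeR called 0. Among all tested genes, 49.0% had a log2 fold change above 0, and the median was -0.02. All 9 transducers were above 0, with a median of 0.40. An unadjusted p under 0.05 was found for 2 of them, both higher in SKG, beside 5.45% of all tested genes in either direction, and the libraries did not overlap for 4, all higher in SKG, where 6.77% of all tested genes were so. This list and those below were chosen with earlier results of these data known, so such counts only describe the genes and are no test. Jak1, the kinase of the partner chains, was at 677, 609 and 652 CPM in BALB/c and 1109, 814 and 997 CPM in SKG. Every SKG library lay above every BALB/c library, with a log2 fold change of 0.59 (SE 0.15, edgeR FDR = 0.686, and FDR = 0.0974 from DESeq2). Jak3, the kinase of the common chain, was at 159 to 182 CPM in BALB/c and 162 to 206 CPM in SKG, which gave a log2 fold change of 0.05 (SE 0.17, edgeR FDR = 0.991).

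Stat5a, a transducer of IL-2, IL-7 and IL-15, was at 80.3, 118 and 117 CPM in BALB/c and at 206, 196 and 186 CPM in SKG. The groups were well apart, with a log2 fold change of 0.90 (SE 0.20, edgeR FDR = 0.619, and FDR = 0.0231 from DESeq2). Its paralog Stat5b was at 436 to 729 CPM in BALB/c and 648 to 919 CPM in SKG, and the genotypes overlapped (log2 fold change 0.45 ± 0.23 (SE), FDR = 0.953, edgeR). Libraries did not overlap for Stat3 (log2 fold change 0.40) and Stat6 (0.35), which act for IL-21 and IL-4. Neither was called (FDR = 0.952 for each, edgeR). The adaptor genes Irs2, Shc1 and Gab2 overlapped between the genotypes, and the high fold change of Gab2 rested on 572 reads in SKG replicate 3 against at most 64 in any other library.

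**Figure D4:**
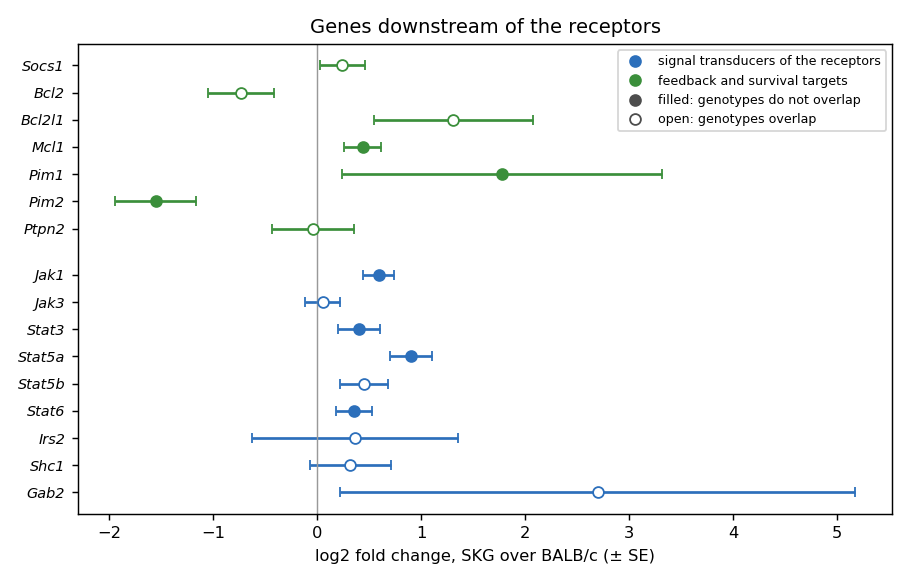
Log2 fold changes (SKG over BALB/c, ± SE) of the tested signal transducers (blue) and feedback and survival targets (green) of the receptors, with filled symbols where SKG and BALB/c libraries were separate. All 9 transducers lie to the right of 0, with Stat5a at 0.90 and Jak1 at 0.59, and Pim2 is the lowest gene at -1.55.

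Among 10 genes that common gamma chain cytokines induce or that restrain their signals, 7 were tested and edgeR called 0, with 4 log2 fold changes above 0 and 3 below. Libraries did not overlap for 3 of them, beside 13.9% of all tested genes, and DESeq2 without shrinkage called Pim2. Pim2, a survival kinase, was at 81.4, 92.9 and 41.6 CPM in BALB/c and at 22.2, 24.9 and 26.5 CPM in SKG, lower in every SKG library (log2 fold change -1.55 ± 0.39 (SE), edgeR FDR = 0.686, and FDR = 0.0176 from DESeq2). Mcl1, an anti-apoptotic gene, was at 265 to 360.2 CPM in BALB/c and at 389 to 492 CPM in SKG. Its log2 fold change was 0.44 (SE 0.17, edgeR FDR = 0.894). Bcl2 and Bcl2l1 overlapped between the genotypes and went in opposite directions. Their log2 fold changes were -0.73 (SE 0.32, edgeR FDR = 0.947) and 1.31 (SE 0.76, edgeR FDR = 0.972), respectively. Pim1 was at 0.0242 to 6.73 CPM in BALB/c and at 9.11 to 17.7 CPM in SKG, with a log2 fold change of 1.78 and a SE of 1.54 (FDR = 0.991, edgeR). Of the feedback inhibitors, Socs1 was at 66.9 to 89.3 CPM in BALB/c and 86.9 to 101 CPM in SKG, whereas Cish, Socs2 and Socs3 did not pass the filter on low counts. Cish, a target of STAT5, had 0 reads in 4 of 6 libraries.

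Of 9 transcription factors known to act on the receptor genes, 7 were tested and edgeR called 0, while DESeq2 without shrinkage called Runx3. Tbx21 and Eomes, which act on Il2rb in NK and iNKT1 cells, had 0 reads in all 6 libraries. Ets1 was at 876, 1411 and 1200.2 CPM in BALB/c and at 1665, 1934 and 1722 CPM in SKG, higher in every SKG library (log2 fold change 0.61 ± 0.19 (SE), FDR = 0.830, edgeR). Egr2 and Runx3 also had libraries that did not overlap, the former higher in BALB/c and the latter in SKG. Runx3 had few reads, 0, 0 and 5 in BALB/c and 60, 403 and 83 in SKG (at most 10.4 CPM). The log2 fold change of Runx3 was 6.86 (SE 2.13, edgeR FDR = 0.830, and FDR = 0.00316 from DESeq2). Foxo1 and Gfi1, an activator and a repressor of Il7r, overlapped between the genotypes. In BALB/c, Foxo1 was lowest in replicate 1 at 1.53 CPM, where Il7r was highest, and in SKG it was highest in replicate 1 at 26.7 CPM, where Il7r was highest too. DESeq2 without shrinkage called 4 of the 27 genes it gave an adjusted p (14.8%, beside 2.58% of all genes) in the lists of partner chains, cytokines, transducers, targets and transcription factors, Jak1, Stat5a and Runx3 higher in SKG and Pim2 higher in BALB/c. Because these lists were chosen with earlier results of these data known, the difference between the shares is not evidence of enrichment.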

How the data were processed

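Per the labels, RNA of stage 0 iNKT cells was made into cDNA libraries and sequenced as single reads of 50 nt. The authors aligned the reads with HISAT2 (2.1.0) to GRCm38 and counted those overlapping exons, without strand, with featureCounts (Subread 1.4.4) and Ensembl annotation. The kit for cDNA differs between the labels and the methods of the study. The deposited counts are whole numbers without normalization. A further table holds the fold changes, SEs and p-values of the authors' comparison and was not used.

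The 6 libraries (3 per genotype) entered 1 fit in R 4.3.3 with edgeR 4.0.16: filterByExpr, TMM, quasi-likelihood F test and Benjamini-Hochberg adjustment over 12312 genes. Standard errors are the absolute log2 fold change over the square root of F, and 95% intervals use the t distribution of the fit. Log2 CPM used a prior count of 2. Positions and exon lengths were from GENCODE M21 (GRCm38), a later release than that counted, and promoters from RefSeq. For marker sums and ratios an exact permutation test over the libraries was used, two-sided. The members and lists were chosen with earlier results of these data known. Named were the members, list genes at an unadjusted p under 0.05 or without overlap, the cytokines, Jak1, Jak3, Zap70 and the 3 genes most like each member. Other list genes were named after their values were seen. The marker lists for thymic epithelial cells (10.0 to 86.9 CPM) and erythroid cells (0.0270 to 69.7 CPM) overlapped between the genotypes. Alternatives were DESeq2 1.42.0, limma-voom (limma 3.58.1), other normalizations, filters and thresholds, replicate blocks and libraries left out. The replicate numbers did not pair the samples. The level of 1 marker gene is not reported here.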

Additional observations from a re-analysis of the deposited data

How the results depend on the processing

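EdgeR's quasi-likelihood test called 0 genes, members or not (671 at an unadjusted p under 0.05, 0 of them members). DESeq2 called 370 genes without shrinkage and 231 with shrunken fold changes, edgeR 2 genes without a filter on low counts and 1 with a stricter filter, and 0 members were called under any of these. Over the pathway lists the count went from 0 to 4 with DESeq2 without shrinkage. Of the members' fold changes under alternatives, 88 kept their direction and 7 turned, while the stricter filter gave no value for Il2ra. Left-out libraries moved the log2 fold change of Il2ra between -0.46 and 6.09, of Il7r between -0.56 and 2.52, of Il4ra between -0.48 and 0.11 and of Il2rb between -0.13 and 0.27, each crossing 0. Il7r was at -0.12 without BALB/c replicate 2, and Il2rb at -0.07 without SKG replicate 3. Il2rg stayed between -0.31 and -0.11 and Il21r between -0.35 and -0.20. The number of members whose libraries did not overlap lay between 1 and 2 with 1 library left out, where 20.7% to 25.8% of all tested genes did not overlap, and without SKG replicate 3 the 1 gene was Il2rg in place of Il21r. It was 2 when BALB/c replicate 1 and SKG replicate 3 were left out together, an alternative chosen after seeing the data, with which 37.7% of all tested genes did not overlap. With the replicate block of the titles' numbers or the library numbers, 0 members were called. The latter turned Il2rb to -0.10, and the log2 fold change of Il7r went from 0.46 to 1.75 and 1.48 with these blocks and to 1.79 with limma-voom. Same-numbered libraries correlated between -0.145 and 0.00289 in their residuals, so the numbers were not used as pairs. The cause was not tested. Thin reads of Il7r, Il2ra and Il15ra in some libraries limit what can be detected for them.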
